A study of Mus musculus with 32 samples.

Results

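The cells described here are the normal stroma and the normal nephron lineage of the mouse kidney at E18.5, each isolated by the fluorescence of a lineage reporter. The libraries are the ENL WT libraries of sorted cells, 4 of the Foxd1 lineage and 3 of the Six2 lineage, which are 7 of the 32 samples of the series. The stromal embryos carried Foxd1 GC/+, a GFP-Cre knock-in that disrupts the Foxd1 copy it sits in. The nephron-lineage embryos carried Six2-TGC tg/+, a transgene in which a GFP-Cre is driven by the Six2 regulatory region. Both were Enl+/+ and carried a Cre-dependent tdTomato reporter, so that tdT+ cells are those in which Cre had been active and all of their descendants, whatever they had become by E18.5. The rest of the series expressed mutant forms of the chromatin reader ENL in the same lineages, was taken earlier in gestation, or used whole kidneys. Of it only 7 sorted ENL T1 libraries and 5 whole ENL WT kidneys are used, as second measures. The labels do not say whether libraries of 1 group came from separate embryos, so that p values measure the spread between these libraries, which may be technical.

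The kidney forms from 2 adjoining pools of mesenchyme around the tips of the ureteric tree. The inner pool, the cap mesenchyme, is marked by Six2. It renews itself and, after Wnt signals, turns into epithelium and gives rise to the podocytes, proximal tubule, loop of Henle and distal tubule. The outer pool is marked by Foxd1. It gives rise to the interstitial fibroblasts, the pericytes and mesangium, the vascular smooth muscle and the renin cells, and it sends signals that the nephron progenitors need in order to differentiate.

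The 2 lineages were sequenced in different runs, with longer reads in the Foxd1 than in the Six2 libraries, and to different depths. Total counts were 2557443 to 3508381 in the Foxd1 libraries and 76818721 to 86174988 in the Six2 libraries. The set of genes counted differed as well, with 55471 genes in the sorted Foxd1 and 54752 in the sorted Six2 counts. Lineage, run, read length, depth, counted gene set and Cre driver therefore cannot be told apart. A gene was called only at an adjusted p under 0.05 (edgeR's quasi-likelihood test, Benjamini-Hochberg) together with a difference of over 4-fold. Levels are given in counts per 1000000 counts (CPM), as mean ± SD over 4 Foxd1 and 3 Six2 libraries. Differences are the log2 fold change of the Foxd1 over the Six2 lineage ± SE, so that a negative value means higher in the Six2 lineage. Of 14187 genes tested, 2045 were called higher in the Foxd1 lineage (14.4% of genes tested) and 1784 higher in the Six2 lineage (12.6%). The share of all genes tested whose groups of libraries did not overlap was 82.8%, so that separation alone singles out few genes here.

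Crosses with the same Cre drivers were also compared in whole ENL WT kidneys, which hold both lineages. Their read lengths differ between the crosses in the same way. The crosses differed past the same thresholds for 1.66% of 22054 genes on the Foxd1 side and 7.90% on the Six2 side. That was 1.83% of protein-coding genes and 64.2% of processed pseudogenes. Of the 12615 protein-coding genes tested in sorted cells, 13.6% were called higher in the Foxd1 and 9.24% in the Six2 lineage. Among them the quintile with the shortest exons, up to 2607 bases, had a median log2 fold change of 1.28. The quintile with the longest exons, from 7877 bases, had one of -0.79. In whole kidneys these quintiles had medians of 0.23 and -0.20. The median size of the log2 fold change over protein-coding genes was 1.05 in sorted cells and 0.27 in whole kidneys. Of 2867 called genes tested in both, 70 passed 4-fold in the same direction in whole kidneys. Per the study's methods the whole kidneys were prepared with another kit than the sorted cells. Their total counts were 74924188 to 79343015 in the Foxd1 and 134468670 to 157266455 in the Six2 cross. Both crosses of whole kidneys were counted over the same 54752 genes. Whole kidneys therefore cannot measure differences that go with the kit, the depths or the counted gene sets of the sorted libraries. Subtracting them does not remove those. A second fit, chosen after the data had been seen, removed the trend with exon length and GC content and subtracted the whole-kidney difference of each gene. It is called the adjusted fit below, and 1352 genes were called higher in the Foxd1 lineage by both fits (9.53%) and 1179 higher in the Six2 lineage (8.31%). Counts for gene lists are given for the main fit and, after it, for both fits.

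**Figure D1:**
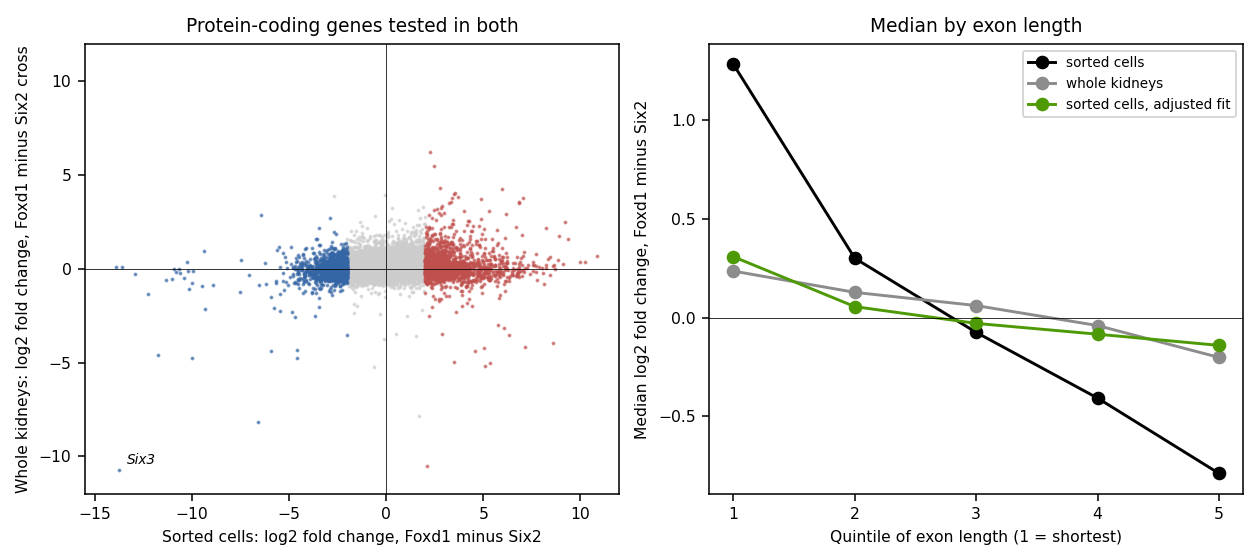
Left, log2 fold change of the Foxd1 over the Six2 lineage in sorted cells (x axis) against that of the Foxd1 over the Six2 cross in whole kidneys (y axis), with 1 point per protein-coding gene. Points are red where called higher in the sorted Foxd1 lineage and blue where called higher in the Six2 lineage. Right, median log2 fold change in quintiles of exon length; the line for sorted cells runs from 1.28 to -0.79 and that of the adjusted fit from 0.31 to -0.14.

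Of the genes behind the 2 drivers, Six2 differed past the threshold and Foxd1 did not. Six2, the transcription factor that keeps nephron progenitors undifferentiated, was at 18.1, 17.5, 10.9 and 17.9 CPM in the Foxd1 libraries and at 187, 175 and 232 CPM in the Six2 libraries. The log2 fold change was -3.6 ± 0.14 (adjusted p = 7.27e-12, edgeR). Foxd1, a forkhead factor of the cortical stroma, was at 59.8, 73.7, 67.7 and 80.8 CPM in its own lineage and at 35.1, 35 and 29.2 CPM in the Six2 lineage, and its difference of 1.09 ± 0.11 did not reach 4-fold. Every Foxd1 library lay above every Six2 library, in cells that keep 1 working copy of the gene, and in whole kidneys the 2 crosses differed by 1.19 on the same scale. Six3, a relative of Six2 that Six2-TGC embryos are known to express where the transgene is active, had no count in the 4 Foxd1 libraries and 42.5, 40.6 and 51 CPM in the Six2 libraries. That is at least 42.6-fold higher when 0 is set to 3 counts per library. In whole kidneys its difference between crosses was -10.71 on the log2 scale, and Six3 was not called in the adjusted fit. Six2 itself differed by 1.59 between the crosses in whole kidneys, in the direction opposite to that in sorted cells. Mllt1, which encodes ENL, was at 37.9 ± 7.83 CPM in the Foxd1 and 77.5 ± 4.42 CPM in the Six2 lineage, a log2 fold change of -1.04 ± 0.12, under 4-fold.

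Among transcription factors of the stroma, those called were all on the side of the Foxd1 lineage. Where a list below has no call in 1 direction by edgeR, DESeq2 called none there either. The members past an unadjusted p of 0.05 in that direction numbered 0 for stromal factors, endothelium, leukocytes, proximal tubule and epithelial junctions. They numbered 1 for podocytes and nephron factors, 2 for mural cells and 5 for the hedgehog pathway. Of 26 tested members of a list of 27 stromal factors, 12 were higher in the Foxd1 lineage, all 12 in both fits, and none in the Six2 lineage, against 14.4% of all genes. Their median log2 fold change was 1.56 beside -0.08 over all genes tested. Tcf21, a basic helix-loop-helix factor needed in stroma and podocytes, was at 1225, 1256, 1110.3 and 1139 CPM in the Foxd1 libraries and at 57.1, 55.8 and 49.8 CPM in the Six2 libraries, a difference of 4.45 ± 0.10. The lowest Foxd1 library lay far above the highest Six2 library. Meis1, a homeobox factor of the interstitium, was at 313 ± 23.2 against 14.3 ± 1.5 CPM (log2 fold change 4.45 ± 0.10). Ebf1, an early B-cell factor also found in stromal cells, was at 145 ± 18.1 against 2.68 ± 0.754 CPM, and its relative Ebf2 was at 10.2 ± 11.3 against 0.152 ± 0.0545 CPM. Alx1, a paired-type homeobox factor, was at 76.7 ± 7.0 against 0.673 ± 0.141 CPM, the largest log2 fold change of this list at 6.83 ± 0.15. Snai2 and Twist1, factors that repress epithelial genes in mesenchyme, had log2 fold changes of 4.42 ± 0.12 and 4.16 ± 0.21. The other called factors were Hic1, Foxl1, Foxp2, Tbx18 and Twist2, with log2 fold changes of 5.08, 3.23, 2.14, 5.34 and 4.15. Nr2f2, Meis2 and Zeb2, which are among the members of highest CPM, did not reach 4-fold, with log2 fold changes of 0.46, 0.27 and 1.56. Among the T-box factors all 3 tested members were higher in the Foxd1 lineage. Tbx3 was at 158 ± 9.97 against 3.17 ± 1.05 CPM, Tbx2 at 82.1 ± 12.1 against 9.03 ± 1.06 CPM and Tbx18 at 9.26 ± 2.91 against 0.221 ± 0.102 CPM.

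**Figure D2:**
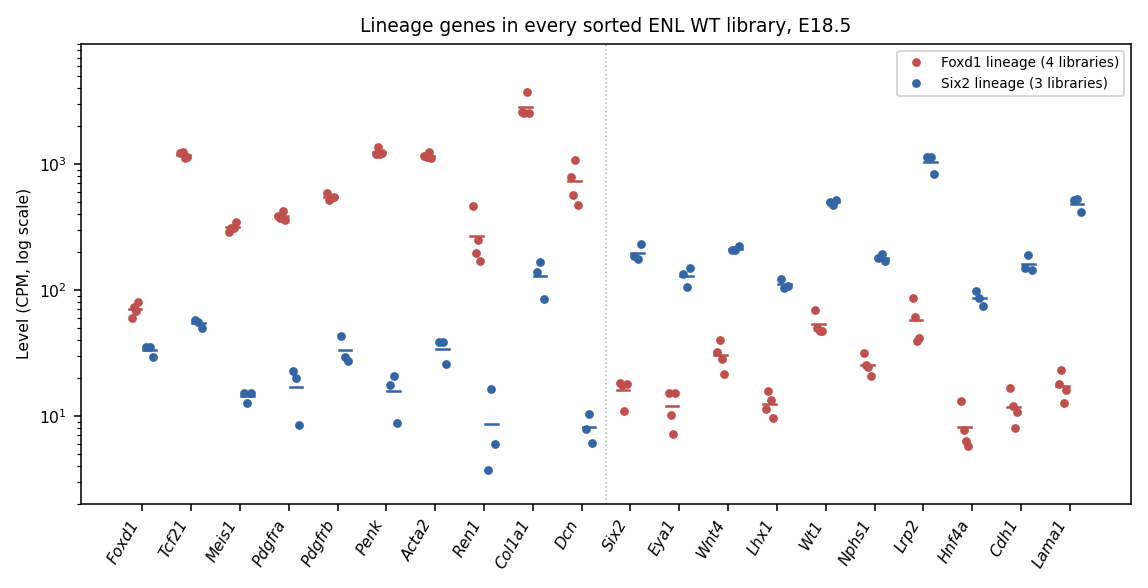
Level (y axis, CPM, log scale) of 20 lineage genes in each sorted ENL WT library; points are libraries, red for the Foxd1 and blue for the Six2 lineage, and short lines are means. Genes left of the dotted line are stromal and those right of it belong to the nephron lineage. For each of the 20 the 2 groups do not overlap, as for 82.8% of all genes tested. The 20 were picked from the lists. Cxcl12 and Itga8, which did not reach 4-fold, and Aldh1a2 and Ndnf, which went against their list, are not shown.

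Markers of stromal progenitors and interstitial cells were mostly higher in the Foxd1 lineage as well. Of 22 members 13 were higher in the Foxd1 lineage, 12 of them in both fits, and 2 were higher in the Six2 lineage. Penk, which encodes proenkephalin and marks the medullary interstitium, was at 1199, 1364, 1195 and 1233 CPM in the Foxd1 libraries and at 17.6, 20.7 and 8.71 CPM in the Six2 libraries (log2 fold change 6.32 ± 0.25). Pdgfra, a receptor for platelet-derived growth factor on fibroblasts, was at 384, 369, 425 and 356 CPM against 22.6, 19.9 and 8.51 CPM. Ecm1, a secreted matrix protein made by stroma in response to retinoic acid, was at 679 ± 128 against 11.8 ± 3.53 CPM. The list also held the neuropeptide gene Nts (257 ± 46.9 against 0.891 ± 0.457 CPM), the angiotensin receptor Agtr2 (227 ± 50.8 against 2.32 ± 0.673 CPM) and the growth factor Igf1 (103 ± 51.2 against 2.71 ± 0.736 CPM). Against the run of the list, Aldh1a2, which makes retinoic acid, was at 123, 172, 128 and 182 CPM in the Foxd1 libraries and at 605, 585 and 659 CPM in the Six2 libraries. Its difference of -2.03 ± 0.12 was under 4-fold at -1.93 without Foxd1 library 1, -1.96 without Foxd1 library 3 and -1.98 without Six2 library 3. Ndnf, a secreted fibronectin-domain protein, was also higher in the Six2 lineage, at 92.3 ± 0.714 against 13.3 ± 2.4 CPM. The study uses Ndnf to mark the proximal S-shaped body, an early nephron, and counts Aldh1a2 among markers of nascent nephrons. Why these 2 went against the list was not tested. Cxcl12, a chemokine often used as a stromal marker, was at 395 ± 23.1 CPM in the Foxd1 and 389 ± 17 CPM in the Six2 lineage, a log2 fold change of 0.02 ± 0.07. Fat4, an atypical cadherin of the stroma, had one of -0.35 ± 0.07.

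The mural cells of the vessels, pericytes and smooth muscle, and the mesangium descend from Foxd1+ cells. Of 19 members of their list 14 were higher in the Foxd1 lineage, all 14 in both fits, with a median log2 fold change of 3.93. The adjusted fit called 1 member higher in the Six2 lineage. Pdgfrb, the receptor that recruits pericytes, was at 587, 515, 540.2 and 546 CPM in the Foxd1 libraries and at 43, 29.5 and 27.1 CPM in the Six2 libraries (log2 fold change 4.04 ± 0.15). Acta2, smooth muscle actin, was at 1167, 1141, 1240.3 and 1112 CPM in the Foxd1 libraries and at 38.4, 38.3 and 25.8 CPM in the Six2 libraries. Myl9, a regulatory light chain of contractile myosin listed with the cytoskeleton genes, was at 952 ± 16.2 against 21.6 ± 1.83 CPM. The kinase Mylk and the nitric oxide receptor subunit Gucy1a1 had log2 fold changes of 3.44 ± 0.10 and 5.04 ± 0.13. Tagln, another actin-binding protein of smooth muscle, was at 275 ± 25.9 against 4.04 ± 1.05 CPM in sorted cells. In whole kidneys it differed by -3.13 on the log2 scale in the other direction, and 67.9% of its exon bases are shared with another gene. The potassium channel pair of pericytes, Kcnj8 and Abcc9, was at 86.6 ± 5.27 and 109.5 ± 12.4 CPM in the Foxd1 lineage and at 0.659 ± 0.16 and 6.73 ± 2.5 CPM in the Six2 lineage. Mcam had a log2 fold change of -1.87 ± 0.10, Notch3 one of 0.73 ± 0.08 and Des one of -0.21 ± 0.09, and none of them was called.

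Renin cells are mural cells of the afferent arteriole that release renin, the enzyme that starts angiotensin formation. Of 10 tested members of their list 8 were higher in the Foxd1 lineage and 1 in the Six2 lineage, the same in both fits. Ren1 was at 465, 197, 247 and 169 CPM in the Foxd1 libraries and at 3.74, 16.3 and 5.93 CPM in the Six2 libraries, a difference of 4.96 ± 0.47 (adjusted p = 1.50e-07, edgeR). The Foxd1 libraries spread by more than 2-fold, with library 1 highest, and all lay above the Six2 libraries. Nfia, a nuclear factor and the most abundant member, was at 369.7 ± 30.3 against 38 ± 1.6 CPM. Akr1b7, an aldo-keto reductase that marks renin cells, was at 12.6 ± 3.62 against 0.404 ± 0.172 CPM. The angiotensin receptors Agtr1a and Agtr1b were at 35.3 ± 4.44 and 14.4 ± 1.6 CPM in the Foxd1 lineage and at 3.72 ± 0.682 and 0.107 ± 0.0521 CPM in the Six2 lineage. The exception was Ace, which converts angiotensin I and sits on the proximal tubule brush border as well as on endothelium, at 6.03 ± 1.73 against 62.4 ± 8.49 CPM (log2 fold change -3.33 ± 0.17). Agt, the substrate of renin, was at 1.04 ± 1.0 and 0.85 ± 0.253 CPM and was not tested.

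The start regions of Ren1 and of the mural gene Myl9 are shown because both genes were called higher in the Foxd1 lineage in both fits and each region holds 1 of the motifs searched. The sequences are the 250 bases before the start site in RefSeq (GRCm38.p6), read 5′ to 3′ on the gene's strand, with the motif in capitals. For Ren1 (chr1:133350424-133350673, plus strand) the capitals mark the TATA box TATAAA. For Myl9 (chr2:156775214-156775463, plus strand) they mark a CArG box, the binding sequence of serum response factor.
Ren1: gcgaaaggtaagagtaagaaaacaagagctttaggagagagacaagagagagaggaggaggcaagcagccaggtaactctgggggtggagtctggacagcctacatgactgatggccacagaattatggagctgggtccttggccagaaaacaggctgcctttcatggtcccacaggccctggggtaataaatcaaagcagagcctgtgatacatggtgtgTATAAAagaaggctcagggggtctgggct
Myl9: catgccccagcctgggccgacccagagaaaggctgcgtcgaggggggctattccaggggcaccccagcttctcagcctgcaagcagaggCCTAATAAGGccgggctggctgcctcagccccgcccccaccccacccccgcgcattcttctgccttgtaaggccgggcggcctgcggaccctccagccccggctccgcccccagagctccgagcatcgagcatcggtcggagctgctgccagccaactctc
The motifs were searched on both strands of all 250-base windows. TATAAA was found for 14.3% of 27025 genes with a start region and for 4 of 9 renin cell genes with a region. It was found for 12.1% of the protein-coding genes called higher in the Foxd1 lineage in both fits and for 9.98% of those higher in the Six2 lineage, beside 7.88% of all protein-coding genes tested. The CArG box was found for 1.62% of all genes and for 2.13% and 2.03% of the same 2 groups. It was found for none of the 14 mural genes with a region and for 1 of 10 cytoskeleton and adhesion genes. A CArG box can hold TATAAA within it, so these 2 searches can overlap. The matches describe the letters in these windows.

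Most genes of interstitial matrix were higher in the Foxd1 lineage, while 9 of 18 basement membrane genes were higher in the Six2 lineage. Of 24 genes of fibrillar and interstitial matrix 19 were higher in the Foxd1 lineage, all 19 in both fits, and 1 in the Six2 lineage in the main fit alone. Together they made up 1.67% of counts in the Foxd1 and 0.447% in the Six2 libraries. Col1a1 was at 2586, 2537, 3707 and 2522 CPM in the Foxd1 libraries and at 138, 165 and 84.6 CPM in the Six2 libraries, and Col3a1 at 2332 ± 353 against 128 ± 49.7 CPM. Dcn, Lum and Ogn, small leucine-rich proteoglycans of collagen fibrils, had log2 fold changes of 6.48 ± 0.29, 6.79 ± 0.32 and 5.76 ± 0.24. Fbln5, needed for elastic fibres, was at 395 ± 30.2 against 5.5 ± 2.77 CPM. The gene against this run was Vcan, a large chondroitin sulfate proteoglycan, at 1665, 1573 and 1854 CPM in the Six2 libraries and 174, 186, 182 and 170.3 CPM in the Foxd1 libraries. Its log2 fold change was -3.25 ± 0.08, and -1.96 in the adjusted fit, where it was not called. Col1a2 had a difference of 2.48 ± 0.14. Sparc and Fn1, both abundant, did not reach 4-fold in the main fit (0.73 and 1.21). The adjusted fit called Fn1 higher in the Foxd1 lineage.

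For basement membranes, of 18 members 9 were higher in the Six2 lineage, 8 of them in both fits, and 1 was higher in the Foxd1 lineage, with a median log2 fold change of -2.11 (-1.16 in the adjusted fit). Lama1 and Lama5 encode laminin chains of tubular and glomerular basement membranes. They were at 484 ± 59.9 and 398 ± 34.6 CPM in the Six2 lineage and at 17.4 ± 4.35 and 33.4 ± 4.56 CPM in the Foxd1 lineage. Lama2, the chain typical of muscle and mesenchyme, was the exception, at 102 ± 12.3 CPM in the Foxd1 and 23.7 ± 4.02 CPM in the Six2 lineage (log2 fold change 2.1, under 4-fold at 1.98 without Six2 library 3). The collagen IV chains of the mature glomerular membrane, Col4a3, Col4a4 and Col4a5, had log2 fold changes of -3.61 ± 0.13, -2.52 ± 0.12 and -2.95 ± 0.11, the second of them called in the main fit alone. The general chains Col4a1 and Col4a2 were also at higher levels in the Six2 lineage but under 4-fold (-1.67 and -1.53). Npnt, an integrin ligand of basement membranes, was at 483 ± 48.5 against 37.8 ± 11.1 CPM, and Lamc1 and Agrn had log2 fold changes of -2.92 ± 0.08 and -2.83 ± 0.09. Nid1, which links laminin to collagen IV, went the other way at 1.11 ± 0.09 and was not called. Over the whole collagen family, 16 of 35 tested genes were higher in the Foxd1 lineage and 8 in the Six2 lineage (16 and 5 in both fits). The 8 included the cartilage-type chains Col2a1, Col9a1 and Col11a2 (-4.17, -2.61 and -3.44) as well as Col18a1 at 707 ± 50.5 against 157 ± 22.8 CPM. Col9a1 and Col18a1 were called in the main fit alone.

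**Figure D3:**
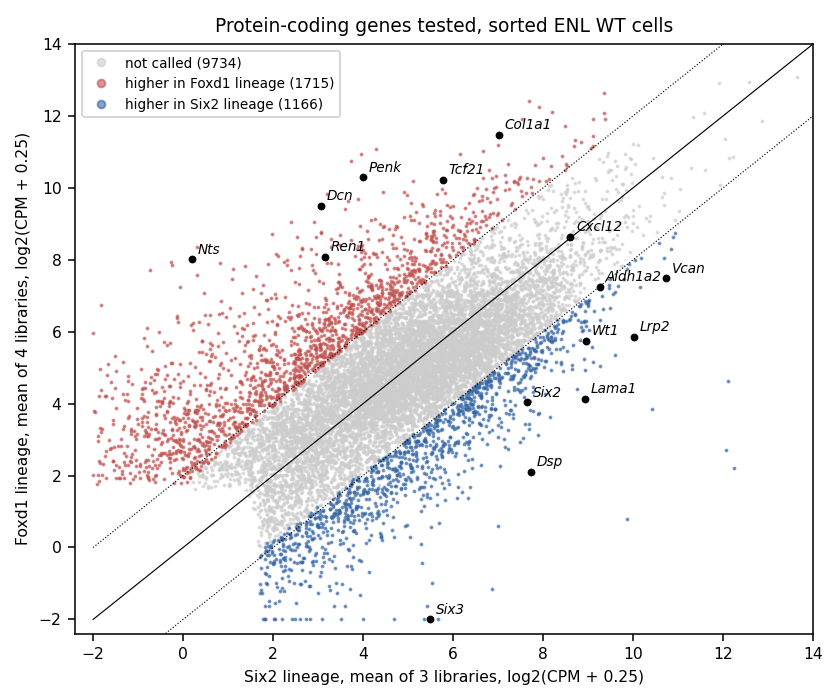
Mean level of each tested protein-coding gene in the Six2 lineage (x axis) and the Foxd1 lineage (y axis), both as log2(CPM + 0.25). Red marks 1715 genes called higher in the Foxd1 lineage, blue 1166 called higher in the Six2 lineage and grey the others. The solid line marks equal levels and the dotted lines 4-fold; Cxcl12 lies on the line of equal levels and Six3 at the lower edge, with no count in the Foxd1 libraries.

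In the nephron lineage, some progenitor genes and most genes of the first steps of nephron formation were higher. Of 16 tested progenitor genes (18 listed) 7 were higher in the Six2 lineage (6 in both fits) and 1 in the Foxd1 lineage. Eya1, the phosphatase partner of Six2, was at 133, 106 and 149 CPM in the Six2 libraries and 15.2, 10.1, 7.15 and 15.2 CPM in the Foxd1 libraries. Sall1 and Pax2, transcription factors of the cap mesenchyme, had log2 fold changes of -2.85 ± 0.12 and -2.63 ± 0.13, and Robo2, a receptor that limits where Gdnf is made, was called in the main fit alone (-2.16 ± 0.09). Cited1, a marker of the least committed progenitors, was at 61.6, 66.4, 29.5 and 54.1 CPM in the Foxd1 libraries and at 27, 35.6 and 39.7 CPM in the Six2 libraries. The groups overlapped, and in whole kidneys Cited1 differed by 2.61 on the log2 scale between crosses. Itga8, the integrin through which the cap mesenchyme signals to release Gdnf, was at 157 ± 13.8 against 148 ± 18.6 CPM. Gdnf, the growth factor that drives ureteric branching, was at 40.0 ± 7.64 against 67.6 ± 6.05 CPM, and neither was called. The member against the run was Hoxa11, at 92.2 ± 10.4 in the Foxd1 and 16.8 ± 1.86 CPM in the Six2 lineage. Of 28 tested Hox genes it was the only one called higher in the Foxd1 lineage, against 14.4% of all genes. In the Six2 lineage 2 were higher in the main fit, against 12.6% of all genes, 10 in the adjusted fit and 9 in ENL T1 cells. The 2 were Hoxb9 (116 ± 0.86 against 15.7 ± 2.94 CPM) and Hoxb3 (15 ± 1.98 against 2.52 ± 0.957 CPM).

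Of 15 tested genes of nephron commitment 10 were higher in the Six2 lineage, all 10 in both fits, with a median log2 fold change of -2.78. Wnt4, the signal that turns progenitors into epithelium, was at 208, 206 and 222 CPM in the Six2 libraries and 32.1, 39.9, 28.2 and 21.3 CPM in the Foxd1 libraries. Lhx1 and Pax8, transcription factors of the renal vesicle, had log2 fold changes of -3.14 ± 0.13 and -2.67 ± 0.15. The Notch ligands Jag1 and Dll1, which pattern the early nephron, were at 335 ± 37.4 and 49.5 ± 5.22 CPM in the Six2 and at 35.1 ± 8.09 and 2.56 ± 0.937 CPM in the Foxd1 lineage. Cdh6, a cadherin of the prospective proximal tubule, was at 547 ± 40.5 against 35.2 ± 5.33 CPM. Dkk1, a secreted Wnt inhibitor, was the exception at 65.8 ± 25.5 in the Foxd1 and 8.04 ± 1.53 CPM in the Six2 lineage (log2 fold change 3.04 ± 0.23).

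Genes of differentiated nephron segments were, apart from 2, either higher in the Six2 lineage or not called. Of 22 podocyte genes 13 were higher in the Six2 lineage, 8 of them in both fits, and none in the Foxd1 lineage. Wt1, a zinc finger factor of progenitors and podocytes, was at 501, 472 and 519 CPM in the Six2 libraries and 68.9, 49.8, 47.5 and 47.2 CPM in the Foxd1 libraries. Podxl, a sialoprotein of the podocyte surface, had a log2 fold change of -2.63 ± 0.15, and Nphs1, which encodes nephrin of the slit diaphragm, one of -2.81 ± 0.11. Actn4 and Synpo, podocyte proteins that other cells also make, had log2 fold changes of -0.09 and -0.57.

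Of 23 proximal tubule genes 7 were higher in the Six2 lineage, the same 7 in both fits, and none in the Foxd1 lineage, against 12.6% of all genes. The adjusted fit called 11 in the Six2 lineage. Lrp2 and Cubn, which encode the endocytic receptors megalin and cubilin, were at 1037 ± 171 and 144 ± 21.6 CPM in the Six2 and at 57.1 ± 22 and 13 ± 4.48 CPM in the Foxd1 lineage. Hnf4a, the factor that drives proximal maturation, was at 98.8, 85.8 and 75 CPM against 13.1, 7.68, 6.31 and 5.71 CPM. Slc34a1, the phosphate transporter, did not reach 4-fold at -1.58 ± 0.28 (over 4-fold at -2.01 without Foxd1 library 1). Dab2 had a log2 fold change of 0.10 ± 0.09. The summed level of this list ran from 459.9 to 986 CPM over the Foxd1 libraries and from 2072 to 2733 CPM over the Six2 libraries. RNA of this list was therefore measured in every sorted Foxd1 library. The sum includes genes such as Dab2 that were not called, so it does not by itself show RNA of tubule cells there. In bulk samples, fewer cells of a type and less RNA per cell cannot be told apart. Of 18 tested genes of the loop of Henle and distal tubule 5 were higher in the Six2 lineage (3 in both fits) and 2 in the Foxd1 lineage (none in both fits). Slc12a1, the transporter of the thick ascending limb, had a log2 fold change of -1.35 ± 0.30, and Umod, uromodulin, one of -1.06 ± 0.29. The 2 genes on the side of the Foxd1 lineage were Sostdc1, a BMP and Wnt inhibitor, and Wfdc15b, a secreted protease inhibitor family gene. Sostdc1 was at 167 ± 38.9 against 41.3 ± 6.99 CPM (under 4-fold at 1.86 without Foxd1 library 1, 1.98 without Six2 library 1 and 1.93 without Six2 library 3). Wfdc15b was at 10.1 ± 3.88 against 2.3 ± 0.445 CPM (under 4-fold at 1.99 without Foxd1 library 2). The number higher in the Six2 lineage was 8 without Foxd1 library 1 and 3 without Foxd1 library 3 or 4.

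Of 30 tested nephron transcription factors 19 were higher in the Six2 lineage (17 in both fits) and none in the Foxd1 lineage, with a median log2 fold change of -2.70. They included Emx2 (55.9 ± 2.41 against 4.07 ± 2.33 CPM), Sim1 (44.4 ± 3.62 against 2.37 ± 0.96 CPM) and Esrrg (49.4 ± 9.16 against 4.42 ± 2.45 CPM). Of 24 tested genes of epithelial junctions and polarity 16 were higher in the Six2 lineage, all 16 in both fits, and none in the Foxd1 lineage. Cdh1, E-cadherin, was at 149.6, 189 and 145 CPM in the Six2 libraries and 16.6, 12, 7.99 and 10.7 CPM in the Foxd1 libraries, and Pard6b, a polarity protein, had a log2 fold change of -4.12 ± 0.15. Epcam, Ocln and Krt8, proteins of epithelial adhesion, tight junctions and the keratin skeleton, had -3.15 ± 0.14, -3.52 ± 0.25 and -3.0 ± 0.14. Cdh2, N-cadherin, was also higher in the Six2 lineage, at 122 ± 16.1 CPM in the Six2 and 14.3 ± 2.71 CPM in the Foxd1 lineage. Cdh11, a cadherin of mesenchyme, was under 4-fold at 0.66 ± 0.08. Of 17 tested genes of the mesenchymal cytoskeleton and adhesion 5 were higher in the Foxd1 lineage and 1, Cdh2, in the Six2 lineage, and Vim, vimentin, was under 4-fold at 1.32 ± 0.11.

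**Figure D4:**
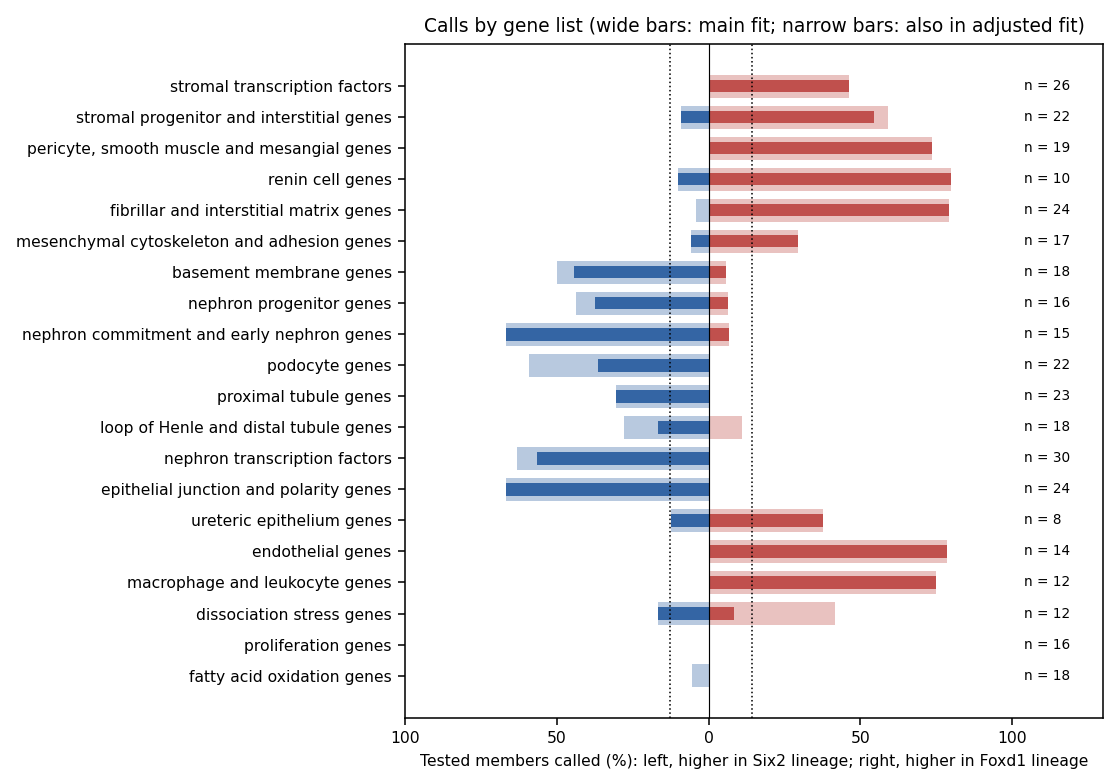
Share of the tested members of each gene list (rows, with the number tested as n) that were called higher in the Six2 lineage (left, blue) or the Foxd1 lineage (right, red). Wide pale bars are calls of the main fit and narrow dark bars calls of both fits; dotted lines mark the share over all genes tested, 12.6% on the left and 14.4% on the right.

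Among 28 ligand and receptor pairs of kidney development, 27 had both genes tested. In the main fit 4 had both genes called, and the same 4 were called in both fits. No share over other pairs was measured. In 3 of the 4, the ligand was higher in 1 lineage and the receptor in the other. Pdgfa, a ligand for fibroblasts, was at 83.6 ± 2.68 CPM in the Six2 and 15.7 ± 4.55 CPM in the Foxd1 lineage, while its receptor Pdgfra was at 17 ± 7.46 and 384 ± 29.9 CPM. For Pdgfb, also a ligand of mural cells, the ligand was at 23.5 ± 5.16 in the Six2 and 7.04 ± 1.95 CPM in the Foxd1 lineage, which was under 4-fold, and Pdgfrb showed the reverse. Hgf, hepatocyte growth factor, was at 7.54 ± 1.52 CPM in the Foxd1 and 0.524 ± 0.245 CPM in the Six2 lineage, and its receptor Met at 11 ± 3.36 and 133 ± 13.9 CPM. Wnt4 was higher in the Six2 lineage and Fzd1, a Wnt receptor, in the Foxd1 lineage at 278 ± 13.8 against 59.4 ± 5.86 CPM. In the remaining pair, Nrg1 and its receptor Erbb4 were both higher in the Six2 lineage (-2.65 ± 0.31 and -4.74 ± 0.20). For Igf1 the ligand was higher in the Foxd1 lineage, while Igf1r was at 222 ± 7.85 and 500.1 ± 18 CPM and not called. Cxcl12 did not differ by 4-fold, and its receptor Cxcr4 was at 3.62 ± 0.666 CPM in the Foxd1 and 44 ± 3.44 CPM in the Six2 lineage. Gfra1, the co-receptor of Gdnf, was at 142 ± 4.35 CPM in the Six2 and 15.5 ± 4.61 CPM in the Foxd1 lineage. Ednra, an endothelin receptor of mural cells, was at 191 ± 8.71 against 27.4 ± 3.34 CPM, and its ligand Edn1 was at 3.04 ± 1.39 against 9.1 ± 0.459 CPM. The adjusted fit alone called Edn1 higher in the Six2 lineage. It also called Vegfa higher in the Six2 and its receptor Kdr higher in the Foxd1 lineage. In the main fit these 2 were under 4-fold (-1.54 and 1.91). Of the other pairs, the axon guidance ligand Sema3a was higher in the Foxd1 lineage at 4.95 ± 0.21. Slit2 had a difference of -1.85 ± 0.08 with its receptor Robo2 at -2.16 ± 0.09, which was called in the main fit alone.

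**Figure D5:**
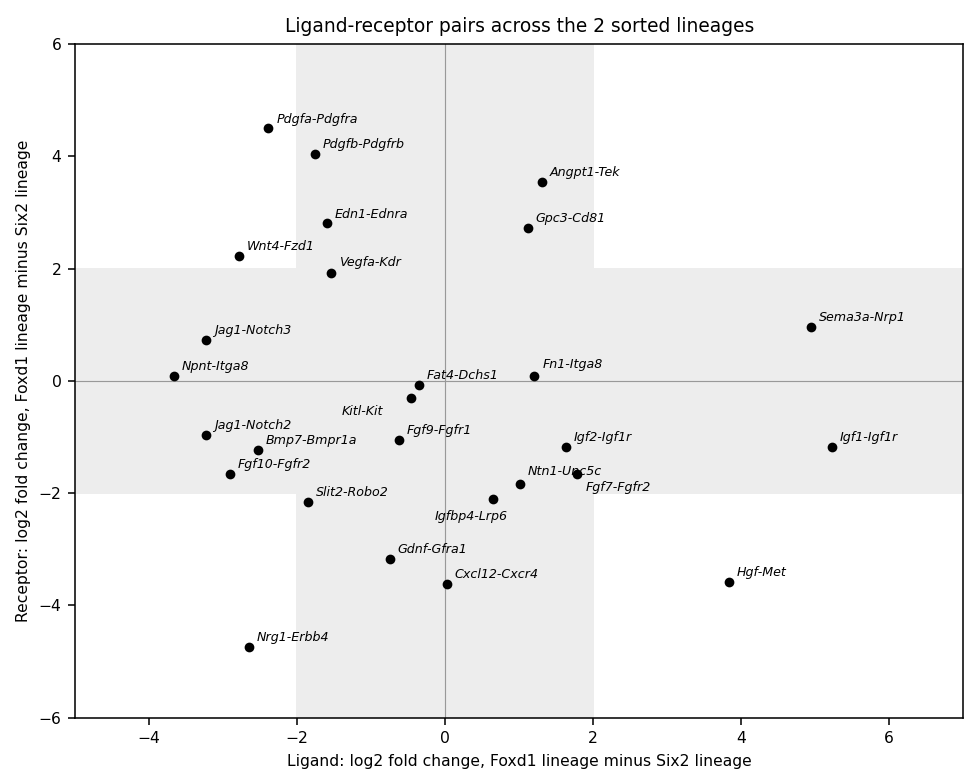
Log2 fold change of the Foxd1 over the Six2 lineage for the ligand (x axis) and the receptor (y axis) of each tested ligand and receptor pair; 1 point is 1 pair and grey bands mark differences under 4-fold. Pdgfa with Pdgfra and Wnt4 with Fzd1 lie at the upper left, Hgf with Met at the lower right, and Nrg1 with Erbb4 at the lower left.

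Of 33 tested Wnt pathway genes 9 were higher in each lineage (8 and 6 in both fits). The shares over all genes tested, beside which this and the following pathway lists stand, were 14.4% and 12.6%. Among ligands, Wnt5a (134 ± 12.4 against 12.5 ± 1.73 CPM) and Wnt11 (76.6 ± 8.79 against 7.89 ± 1.34 CPM) were higher in the Foxd1 lineage. Wnt4 and Wnt7b were higher in the Six2 lineage, the second at 8.1 ± 0.637 against 1.34 ± 1.09 CPM. Notum, an enzyme that inactivates Wnt proteins, was higher in the Six2 lineage in the main fit alone (-2.74). Rspo1, which strengthens Wnt signals, was at 53 ± 5.33 in the Six2 and 6.6 ± 1.76 CPM in the Foxd1 lineage, and its receptor Lgr5 at 36.6 ± 4.38 and 3.64 ± 1.16 CPM. The secreted inhibitors Sfrp1, Dkk1, Dkk2 and Dkk3 were all higher in the Foxd1 lineage (2.8, 3.04, 2.38 and 2.46), Dkk2 in the main fit alone. Receptors divided, with Fzd1, Fzd10 and Ror2 higher in the Foxd1 lineage (2.23, 2.01 and 2.38) and Fzd5, Fzd6, Fzd3 and Lrp6 in the Six2 lineage (-4.41, -2.63, -2.49 and -2.1), the last 2 in the main fit alone. Fzd10 was under 4-fold at 1.95 without Foxd1 library 2, 1.98 without Foxd1 library 3 and 1.94 without Six2 library 2.

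The hedgehog pathway carries signals from the ureteric epithelium to the surrounding stroma. Gli2, a transcription factor of this pathway, was at 46.4, 53.5, 48.8 and 48.8 CPM in the Foxd1 libraries and 5.45, 4.33 and 5.31 CPM in the Six2 libraries. The target genes Gli1 and Hhip had log2 fold changes of 2.31 ± 0.21 and 2.15 ± 0.18. Of 11 tested members 4 were higher in the Foxd1 lineage, none was higher in the Six2 lineage, and the receptor Ptch1 and the transducer Smo had differences of 0.06 and -0.43. In the retinoic acid pathway, 6 of 17 were higher in the Foxd1 lineage (5 in both fits) and 2 in the Six2 lineage. The latter were the enzymes Rdh10 and Aldh1a2, which act one after the other to make retinoic acid. They were at 208 ± 12 and 616 ± 38.2 CPM in the Six2 and 25.9 ± 3.87 and 151 ± 29.9 CPM in the Foxd1 lineage. Those higher in the Foxd1 lineage included Ecm1, the carrier Rbp4 (3.95 ± 0.33), Dhrs3, which turns retinal back to retinol (3.02 ± 0.09) and the retinol uptake receptor Stra6 (2.2 ± 0.11). The receptor Rarg was also higher (2.16 ± 0.15). Of 18 tested genes of the FGF list 5 were higher in the Six2 lineage and 1, Fgf2, in the Foxd1 lineage (2.36). The 5 were the ligands Fgf1, Fgf10 and Fgf20 (-2.71, -2.91 and -3.83) and the receptors Fgfr4 and Fgfrl1 (-2.85 and -2.3). Fgf20 keeps nephron progenitors in place and was at 11 ± 2.44 CPM in the Six2 and 0.818 ± 0.522 CPM in the Foxd1 lineage.

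Of 36 tested genes of the BMP and TGF-beta pathway 4 were higher in the Foxd1 lineage and 6 in the Six2 lineage (3 and 4 in both fits). Both counts are near the shares over all genes tested, 14.4% and 12.6%. Bmp7, needed for progenitor survival, was at 160.0 ± 3.37 in the Six2 and 27.2 ± 8.43 CPM in the Foxd1 lineage. Bmp2, Inhbb and the modulator Bmper had -2.83, -2.93 and -2.4, the last in the main fit alone. The inhibitor Grem1 had 1 count in the Foxd1 libraries and was at 10.2, 14.4 and 11 CPM in the Six2 libraries. Gdf10 (28 ± 8.91 against 0.421 ± 0.213 CPM) and the latent binding protein Ltbp4 (255 ± 9.77 against 23.7 ± 5.2 CPM) were higher in the Foxd1 lineage. Ltbp1 was higher in the Six2 lineage at -2.57 ± 0.12, in the main fit alone. Smoc2, a matrix protein, and Id3, a target of BMP signals, were the other genes higher in the Foxd1 lineage (4.01 and 3.07), Id3 in the main fit alone. Of 15 tested Notch genes 3 were higher in the Foxd1 and 5 in the Six2 lineage (2 and 4 in both fits), against 14.4% and 12.6% of all genes. Besides Jag1 and Dll1, these were the modifier Lfng, the target Hey1 and the receptor Notch1 in the Six2 lineage (-2.86, -2.45 and -2.14). Notch4, Mfng and Hes1 were higher in the Foxd1 lineage (2.55, 2.39 and 2.3), with Notch1 and Hes1 called in the main fit alone. Of 20 tested genes of PDGF, VEGF and angiopoietin signalling 6 were higher in the Foxd1 lineage, 5 of them in both fits, and 1, Pdgfa, in the Six2 lineage, where the adjusted fit called 3. Besides the PDGF receptors these were Vegfd, a ligand of lymphatic and vascular growth (92.2 ± 11.2 against 1.57 ± 0.333 CPM), Angpt2 (2.98), the angiopoietin receptor Tek (3.54) and Angptl4 (2.32, main fit alone).

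Of 28 tested genes of GDNF, HGF, IGF and EGF signalling 5 were higher in the Foxd1 and 8 in the Six2 lineage (4 and 7 in both fits). Over all genes tested the shares were 14.4% and 12.6%. On the side of the Six2 lineage were the receptors Erbb4, Met, Gfra1 and Erbb3 and the ligands Tgfa, Hbegf, Nrg1 and Egf. Of these, Tgfa had a log2 fold change of -3.64 ± 0.19 and Egf was called in the main fit alone. Egf was under 4-fold at -1.8 without Foxd1 library 1 and -1.85 without Foxd1 library 3, and Hbegf was under 4-fold at -1.9 without Foxd1 library 2 and -1.99 without Six2 library 2. On the side of the Foxd1 lineage were Igf1, Hgf, the binding protein Igfbp3 (3.74 ± 0.09), and Gfra2 with Nrtn, the receptor and its ligand neurturin (2.98 and 2.47). In the adjusted fit Nrtn was called in the opposite direction, at -2.3, beside a difference of 5.46 between the crosses in whole kidneys. Igf2, the fetal insulin-like growth factor, was at 325 ± 59.6 against 105 ± 8.31 CPM and not called in the main fit. The adjusted fit called Igf2 higher in the Foxd1 lineage. Of 33 tested axon guidance genes 2 were higher in the Foxd1 lineage, Sema3a and the ephrin receptor Epha3 (4.95 and 5.19), and 7 in the Six2 lineage, 5 of them in both fits. The 5 were the ligands Slit1, Sema3g, Efnb2, Sema3f and Ntn4 (-4.82, -3.22, -2.53, -2.18 and -2.05, the last under 4-fold at -1.93 without Foxd1 library 1), and Robo2 and Plxna4 were called in the main fit alone. Of 5 tested Fat and Dachsous cadherins, Fat1 and Fat3 were higher in the Six2 lineage in the main fit alone (-2.34 and -2.06, Fat3 under 4-fold at -2.0 without Foxd1 library 4 and -1.98 without Six2 library 1). Fat4 and its ligand Dchs1, described as acting between stroma and cap mesenchyme, were at -0.35 and -0.08.

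Markers of endothelium and leukocytes were higher in the Foxd1 lineage. Of 14 endothelial genes 11 were higher in the Foxd1 lineage, all in both fits. Their summed level was 446 to 764 CPM over the Foxd1 libraries and 68.8 to 83 CPM over the Six2 libraries. No member was at 0 in either group. Plvap and Cdh5, an endothelial diaphragm protein and a cadherin, had log2 fold changes of 3.94 ± 0.19 and 2.58 ± 0.18. Pecam1, which defines endothelium, was at 41 ± 9.03 against 13.9 ± 1.2 CPM and not called. Of 12 tested genes of macrophages and leukocytes 9 were higher in the Foxd1 lineage, with summed levels of 174 to 430.2 against 37.1 to 39.2 CPM. Csf1r, which defines macrophages, had a difference of 0.70 ± 0.23 and was not called. Lyz2, a lysozyme, was at 87.3, 54.4, 29.5 and 32.8 CPM in the Foxd1 libraries and 0.58, 0.291 and 0.818 CPM in the Six2 libraries. Among 8 tested ureteric genes (15 listed) Aqp2, Wnt11 and Upk3a were higher in the Foxd1 (3.34, 3.28 and 7.01) and Wnt7b in the Six2 lineage. Their summed level was 118 to 156 against 46.8 to 47.8 CPM. Avpr2 was at 0 in both groups, and Ret, which defines the ureteric tip, was at 1.31 ± 1.15 and 3.17 ± 0.237 CPM. None of the 4 tested red cell genes was called by edgeR, with 2 higher in the Foxd1 and 1 in the Six2 lineage at an unadjusted p under 0.05 and none called by DESeq2. Of 5 tested neural genes Stmn2 and S100b were higher in the Foxd1 (7.76 and 7.11) and Erbb3 in the Six2 lineage (-2.64). The summed level of that list was 23.4 to 48.4 against 52.7 to 58.9 CPM. The part of other cells in the differences described here was not tested.

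Genes that respond to handling were called in both directions. Of 12 genes induced by tissue dissociation 5 were higher in the Foxd1 lineage, 1 of them in both fits, and 2 in the Six2 lineage. Over all genes tested the shares were 14.4% and 12.6%, and in both fits 9.53% and 8.31%. In whole kidneys the same list had a median log2 fold change of 0.81. Fos, an immediate early gene, was at 1519.8, 1733, 1541 and 1387 CPM in the Foxd1 libraries and 472, 295 and 333 CPM in the Six2 libraries (log2 fold change 2.07, under 4-fold at 1.94 without Six2 library 2). The heat shock genes Hspa1a and Hspa1b were the 2 higher in the Six2 lineage, and as near-identical copies they are uncertain one by one. Hspa1a was at 59.2, 86.9 and 80.6 CPM in the Six2 libraries and 10.2, 7.07, 10.9 and 15.2 CPM in the Foxd1 libraries, and Hspa1b at 249 ± 44.2 against 37 ± 5.61 CPM. None of 16 proliferation genes was called in either direction by the main edgeR fit or by DESeq2. The adjusted fit called 1 higher in the Foxd1 lineage. At an unadjusted p under 0.05, 7 of the 16 were higher in the Foxd1 and 2 in the Six2 lineage, with a median log2 fold change of 0.23. Mki67 had a log2 fold change of -1.34 ± 0.10 and Top2a one of -0.06 ± 0.08. Fatty acid oxidation, a programme of maturing tubules, showed 1 called gene of 18, the coactivator Ppargc1a at -2.19 ± 0.25 in the main fit alone (under 4-fold at -1.98 without Foxd1 library 4).

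Among the 15 protein-coding genes with the largest fold in each direction, the Foxd1 lineage was led by genes with almost no count in the Six2 libraries, such as Ccl11, an eosinophil chemokine made by fibroblasts (31 ± 8.04 against 0.026 ± 0.0358 CPM). Mfap5, a microfibril protein, was at 208, 170.2, 477 and 122 CPM in the Foxd1 libraries and 0.747, 0.426 and 0.554 CPM in the Six2 libraries. Clec3b, a plasminogen-binding protein of matrix, was at 33.9 ± 33.8 against 0.0652 ± 0.014 CPM. Ndufa4l2, a mitochondrial protein found in mural cells, was at 328 ± 41.6 against 0.986 ± 0.313 CPM. S100a8 and Stfa1, genes of neutrophils, were in the same group of 15 at 39.7 ± 28.7 and 27.5 ± 24.1 CPM in the Foxd1 lineage. The Six2 lineage was led by mitochondrial and duplicated genes, and by Dsp, desmoplakin of epithelial desmosomes, at 213 ± 13.8 against 4.03 ± 1.43 CPM. Kif5c, a kinesin, was at 51.4 ± 6.34 against 1.34 ± 0.899 CPM, and Nptx1, a pentraxin, at 39.1 ± 1.15 against 0.494 ± 0.424 CPM.

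Some of the largest differences belong to genes that counting cannot place with certainty. The mitochondrial genes mt-Atp6, mt-Co2 and mt-Co3 encode subunits of ATP synthase and cytochrome oxidase. They were at 4824 ± 1596, 4295 ± 1194 and 4378 ± 923 CPM in the Six2 and at 4.34 ± 2.31, 6.24 ± 3.64 and 24.3 ± 7.12 CPM in the Foxd1 lineage. For mt-Co1 the levels were 12787 ± 2166 and 8709.9 ± 1424 CPM. In whole kidneys of the Foxd1 cross, mt-Atp6, mt-Co2 and mt-Co3 were at 1796, 2172 and 1838 CPM. Mitochondrially encoded genes together held 4.84% to 6.79% of counts in the Foxd1 and 4.41% to 7.34% in the Six2 libraries. Processed pseudogenes held 1.55% to 1.71% and 3.74% to 3.78%. Of 885 processed pseudogenes tested, 122 were called higher in the Foxd1 and 487 in the Six2 lineage. Srp54b, Entpd4b and Tmem254c, which have near-identical copies beside them, were also among the 30 leading genes and are uncertain for that reason. Med10, Hgs and Slirp, whose exons overlap another annotated gene over most of their length, were among them too and are uncertain as well. Med10, Hgs and Slirp were at 106, 62.2 and 233 CPM in the sorted Foxd1 libraries. In whole kidneys of the Foxd1 cross they were at 0, 0.00424 and 0.0523 CPM. Srp54b, Entpd4b and Tmem254c were at 1.27, 0 and 0 CPM in the former and at 101, 60.7 and 148 CPM in the latter. The cause was not tested. Counting ignored strand, and of other genes named here Akr1b7 (27.2%), Avpr2 (81.3%), Csf1r (15.1%), Dll1 (20.5%), Fgf2 (13.2%), Fgf20 (12%), Fzd5 (17.8%), Hoxa11 (35%), Hoxb3 (52.9%), Hspa1a (19%), Igf2 (64.5%), Meis1 (18.3%), Notum (38.1%), Nphs1 (11.8%), Ntng2 (14%), Pdgfa (26.1%), Penk (14.3%), Slc34a1 (11.7%), Tbx18 (20.6%), Twist2 (46.5%) and Umod (19.5%) share over 10% of their exon bases with another gene. Of 76 tested ribosomal protein genes, which are short, 43 were higher in the Foxd1 lineage in the main fit and 13 in both, among them Rps19 at 4814 ± 202 against 238 ± 22.4 CPM.

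The same contrast was measured in 7 other libraries, the ENL T1 cells sorted with the same Cre drivers. They share no library with the ENL WT comparison. Per the study's methods the ENL T1 embryos came from other matings, and read length went with the driver in both genotypes. Whether the genotypes shared runs is not stated. In ENL T1 cells, 13.2% of 12605 protein-coding genes were called higher in the Foxd1 and 8.58% higher in the Six2 lineage. Of 2881 protein-coding genes called in ENL WT cells 2766 were tested in ENL T1 cells, and 2187 of these were called in the same direction. Ntng2, a netrin relative chosen after its values were seen, was the 1 called in the opposite direction, at 2.84 in ENL T1 cells. In ENL WT cells it was at -2.06, under 4-fold at -1.96 without Foxd1 library 3, -1.96 without Foxd1 library 4 and -1.98 without Six2 library 2. The stromal genes Tcf21, Pdgfrb and Col1a1 had log2 fold changes of 4.33, 2.83 and 3.18 in ENL T1 cells beside 4.45, 4.04 and 4.46 in ENL WT cells. Six2, Wnt4 and Cdh1 had -2.34, -3.0 and -3.83 beside -3.6, -2.78 and -3.73. Of the mature nephron genes, Lrp2 was at -3.75 beside -4.15 and Nphs1 at 1.36 beside -2.81. Of 22 podocyte genes, 3 were higher in the Foxd1 and 2 in the Six2 lineage in ENL T1 cells, and of 23 proximal tubule genes 1 was higher in the Six2 lineage. Whether the 2 genotypes differ in these contrasts was not tested.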

How the data were processed

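RNA-seq of sorted tdT+ cells (SMART-Seq v4 libraries) and of whole kidneys (KAPA Stranded mRNA-Seq libraries) was compared. Per the labels and the study's methods, the authors mapped reads to mm10 with HISAT2, 1 place per read, and used HTSeq, blind to strand and mapping quality, to assign them to genes, so the deposited values are raw counts per gene; the annotation release is not given in the sources used here. The Foxd1 and Six2 tables were joined by Ensembl ID, which kept 54417 genes in both, with 1054 found in the Foxd1 table alone and 335 in the Six2 table alone. Gene types, exon lengths and overlaps are from GENCODE vM21, start regions from RefSeq.

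Counts were tested with edgeR 4.0.16 in R 4.3.3 (quasi-likelihood, TMM scaling, filterByExpr with a minimum count of 10 and a minimum total of 15, Benjamini-Hochberg), fitted to the 7 ENL WT libraries alone. A gene was called at an adjusted p under 0.05 and over 4-fold. The study's methods give no test across lineages. CPM use TMM effective library sizes, and a group mean under 3 counts per library was set to 3 counts for a bound on a fold. 3 counts equal 1.05 CPM on average in the Foxd1 and 0.0349 CPM in the Six2 libraries, and these bounds cover counting error only. The same fit was run for ENL T1 libraries and whole kidneys. Alternatives were edgeR's exact test, DESeq2 1.42.0, glmTreat, other scalings, filters and folds, a joint fit, the replicate number as a block, thinning to equal totals, removal of the length and GC trend, and leaving out each library. The main fit alone was tested on simulated counts. Those had few changed genes and no trend with exon length or GC content, unlike these data.

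The samples, lists and pairs were chosen with earlier results of these data known. Genes named are the drivers, the 5 members of highest CPM in each list, called members against the direction of a list, called ligands and receptors, both genes of each pair, the 3 highest called members of a family per direction, and the 15 largest folds per direction among called protein-coding genes of at least 10 CPM. Those named outside this rule, chosen after their values were seen, are Abcc9, Agtr1b, Akr1b7, Alx1, Cited1, Cldn7, Col11a2, Col4a3, Col4a4, Col9a1, Cyp2s1, Cyp4a31, Dcn, Des, Dpp4, Dst, Ebf1, Ebf2, Emilin1, Emx2, Enpep, Epcam, Epha2, Esrrg, Eya1, Fbln5, Foxj1, Frem2, Hic1, Hnf4a, Kcnj8, Lama1, Lama5, Lgals1, Lhx1, Lum, Mcam, Meis1, Nid1, Nphs1, Ntng2, Nts, Ocln, Ogn, Ppargc1a, Ret, Sim1, Slc12a2, Slc38a2, Slc43a3, Snai2, Spock2, Synpo, Tmsb4x, Twist1, Twist2, Umod, Upk3a, mt-Co1. Some genes that the rule names are not reported here, while the counts for lists and families cover all tested members.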

Additional observations from a re-analysis of the deposited data

Results flagged for a closer look

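In the 4 sorted Foxd1 libraries, 1 library stood far from the other 3 for 20 of the 265 named genes. This was judged by its gap to the nearest other library over the whole range, so that the gap itself can be small. Chance flags about 1 in 20 groups. The single library was the highest for these genes. Col1a1 was at 3707 CPM in library 3 and at 2522 to 2586 CPM in the others. Ebf2 was at 26.9 CPM in library 3 and at 2.67 to 6.13 CPM in the others. Fat1 was at 188 CPM in library 2 and at 170.0 to 172 CPM in the others. Fzd6 was at 6.42 CPM in library 1 and at 2.52 to 2.77 CPM in the others. Grem1 was at 0.307 CPM in library 2 and at 0 in the others. Ndnf was at 16.9 CPM in library 1 and at 12 to 12.2 CPM in the others. Notch1 was at 67.8 CPM in library 4 and at 53 to 55 CPM in the others. Rbp4 was at 21 CPM in library 3 and at 8.76 to 9.05 CPM in the others. Sox4 was at 642 CPM in library 1 and at 594 to 600.0 CPM in the others. Stmn2 was at 24.8 CPM in library 3 and at 2.67 to 6.15 CPM in the others. Wt1 was at 68.9 CPM in library 1 and at 47.2 to 49.8 CPM in the others. The single library was the lowest for these genes. Adamts9 was at 30.7 CPM in library 3 and at 35.3 to 35.8 CPM in the others. Col4a4 was at 19.8 CPM in library 3 and at 28.6 to 30.4 CPM in the others. Erbb3 was at 2.77 CPM in library 2 and at 5.71 to 6.31 CPM in the others. Hes1 was at 531 CPM in library 2 and at 655 to 667 CPM in the others. Id3 was at 932 CPM in library 3 and at 1062 to 1074 CPM in the others. Nts was at 187 CPM in library 4 and at 272 to 285 CPM in the others. Six2 was at 10.9 CPM in library 3 and at 17.5 to 18.1 CPM in the others. Upk3a was at 1.9 CPM in library 4 and at 3.79 to 3.99 CPM in the others. Wnt5a was at 115 CPM in library 4 and at 138 to 142 CPM in the others. The gene Ntng2 had a log2 fold change of 2.84 in ENL T1 cells and of -2.06 in ENL WT cells, with calls in opposite directions, and the difference between the 2 was not tested.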

How the results depend on the processing

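For the sorted ENL WT comparison, the counts higher in the Foxd1 and in the Six2 lineage were 2045 and 1784. Without a low-count filter they were 3223 and 3951, at over 2-fold 3872 and 3935, and at over 8-fold 1046 and 855. The other alternatives gave 1593 to 2555 and 1290 to 2359, among them edgeR's exact test (2046 and 1785), DESeq2 (2053 and 1768), glmTreat at 4-fold (1668 and 1290), library size alone (1852 and 1978), thinned counts (1993 and 1517), the length and GC trend removed (1593 and 1721), the whole-kidney difference subtracted (2124 and 1482) and both (1655 and 1521). In ENL T1 cells, beside 1986 and 1697, the counts were 3094 and 4020 without a filter, 3818 and 3987 at over 2-fold, and 907 and 828 at over 8-fold. In whole kidneys, beside 367 and 1742, 145 were higher in the Foxd1 cross by glmTreat, 206 and 896 were called over 1 CPM, 1338 were higher in the Foxd1 cross at over 2-fold, 130 at over 8-fold and 556 with the trend removed. The causes were not tested, apart from the number of genes tested and the fold required, which the filters and folds set. Leaving out each replicate in turn gave 2027 to 2053 and 1756 to 1811 in ENL WT cells, 1966 to 2012 and 1651 to 1723 in ENL T1 cells, and 343 to 423 and 1692 to 1780 in whole kidneys. Same-numbered libraries of the 2 sorted ENL WT groups did not deviate together (-0.0379 to -0.00746, Pearson correlation over genes), so the numbers do not pair them. With the replicate number as a block the counts were 2052 and 1774 in ENL WT cells, 1977 and 1682 in ENL T1 cells and 376 and 1784 in whole kidneys. Of the 265 named genes, the adjusted fit kept 223 at the same call and direction, and Nrtn alone reversed a call, at -2.94 with the whole-kidney difference subtracted and -2.30 in the adjusted fit. The depth of the Foxd1 libraries limits genes of low level: where 3 counts equal 1.05 CPM, absence from the Foxd1 lineage is not shown.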

Other observations

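Families that were taken whole gave a further view of the 2 lineages. Over all genes tested 14.4% were higher in the Foxd1 and 12.6% in the Six2 lineage, and the counts of each family stand beside these shares. Of 243 tested solute carriers 13 were higher in the Foxd1 and 42 in the Six2 lineage (11 and 36 in both fits). The most abundant of the latter were Slc38a2, an amino acid transporter, at 1878 ± 132 in the Six2 and 399.7 ± 90.2 CPM in the Foxd1 lineage, and Slc12a2, the basolateral sodium, potassium and chloride transporter, at 472 ± 27.5 and 65.9 ± 8.42 CPM, both in the main fit alone. Of the former, Slc43a3 was at 91.4 ± 7.1 against 11 ± 1.17 CPM. Of 15 tested claudins, which set the permeability of tight junctions, Cldn6, Cldn12, Cldn4 and Cldn7 were higher in the Six2 lineage and Cldn11 in the Foxd1 lineage, the last at 117 ± 9.67 against 8.75 ± 1.13 CPM. Cldn12 was under 4-fold at -1.98 without Foxd1 library 2, -1.95 without Foxd1 library 3 and -1.96 without Six2 library 2, and Cldn7 under 4-fold at -1.93 without Foxd1 library 4 and -1.89 without Six2 library 2. The related SoxC factors Sox4 and Sox11 stood on opposite sides, Sox4 at 608 ± 22.5 in the Foxd1 and 126 ± 11.2 CPM in the Six2 lineage (main fit alone) and Sox11 at 79.5 ± 12.9 and 618 ± 69.7 CPM. Of 20 tested forkhead factors Foxl1, Foxp2 and Foxs1 were higher in the Foxd1 lineage and Foxo3, Foxp1, Foxo4 and Foxj1 in the Six2 lineage, Foxo3 and Foxp1 in the main fit alone. The matrix proteases Adamts2, which processes fibrillar procollagens, and Adamts9 and Adamts16 had log2 fold changes of 3.99 ± 0.17, -3.28 ± 0.09 and -3.53 ± 0.23. Of 21 tested P450 enzymes 4 were higher in the Foxd1 and 5 in the Six2 lineage, among them Cyp2s1 (86.3 ± 4.19 against 5.57 ± 0.497 CPM) and Cyp4a31 (5.62 ± 1.79 against 35.8 ± 4.87 CPM). Of 19 tested semaphorins 2 were higher in the Foxd1 and 6 in the Six2 lineage (2 and 5 in both fits).

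Several abundant genes that no list holds were called in both fits and were chosen after their values were seen. In the Foxd1 lineage these were Lgals1, which encodes galectin-1 (2171 ± 251 against 19.2 ± 2.85 CPM), Tmsb4x, an actin-sequestering peptide (5418 ± 476 against 207 ± 25.4 CPM), and Emilin1, a glycoprotein of elastic fibres (947 ± 58.9 against 29.7 ± 5.68 CPM). In the Six2 lineage they were Dst, a cytoskeletal linker of hemidesmosomes (770.1 ± 65 against 40.2 ± 3.37 CPM), Frem2, a basement membrane protein of the Fraser complex (544 ± 20.3 against 47.4 ± 7.07 CPM), Spock2, a proteoglycan (611 ± 97.4 against 33 ± 4.07 CPM), Epha2, an ephrin receptor (286 ± 29.9 against 12 ± 3.57 CPM), and the peptidases Enpep and Dpp4 of the brush border (774 ± 67.3 and 466 ± 44.1 CPM against 137 ± 32.2 and 64.2 ± 17.8 CPM).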
